A study of Homo sapiens with 6 samples.

Results

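Mitochondrial ribosomal protein genes were followed across 3 siRNA conditions in HT-29 cells, a line derived from a human colon adenocarcinoma. Genes were taken when their Entrez identifier belonged to a protein-coding gene whose symbol reads MRPL or MRPS followed by a number, with or without a letter A to C. This rule uses names only and no measured value. It matched 77 genes, and 75 of them had a row of their own among the 27434 rows of the expression tables. All 75 passed the filter on low counts. The remaining pair, MRPS24 and MRPS6, shared rows with other genes and were kept apart. Cells received siNT, the non-targeting control, siHOXA-AS3 or siHOXB-AS3, and RNA was taken after 48 h, with 2 libraries per condition. The last 2 are pools of siRNAs against HOXA-AS3 and HOXB-AS3, long noncoding RNAs transcribed from the centre of the HOXA and HOXB clusters. The sample labels give 10 nM siRNA for all 6 libraries, whereas the study's methods give another dose. All libraries come from 1 cell line, and nothing in the labels says that the 2 libraries of a condition were separate cultures, so p-values measure the spread between libraries, which may be technical.

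The mitochondrial ribosome sits in the mitochondrial matrix and translates the few messages that the mitochondrial genome still encodes, all of them core subunits of the respiratory chain and ATP synthase. Its ribosomal RNAs come from mitochondrial DNA, but each of its proteins is encoded in the nucleus, made on cytosolic ribosomes and imported. Part of these proteins have homologues in bacterial ribosomes, and the rest were added during the evolution of mitochondria. Symbols do not always give the subunit, since MRPS30 and MRPS18A, named as small-subunit proteins, sit in the large subunit.

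By this assignment 51 of the 75 genes encode large-subunit proteins and 24 small-subunit proteins. Homologues of bacterial proteins number 44, and 31 are specific to mitochondria. The genes lie on 21 chromosomes. Exons of 39 of them overlap those of another annotated gene in GENCODE v29, in 28 cases on the opposite strand, and since the strand setting of the counting is not given in the sources used here, reads of such pairs may not be separable. RefSeq lists 106 pseudogenes with MRPL or MRPS symbols, and 39 of the 75 genes have such a pseudogene. Only MRPS31P5 and MRPL45P2 of them had rows of their own in the tables, so reads of MRPS31 and MRPL45 could have been split with these near copies and their values are uncertain to that extent.

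Total expected counts were 15998518 to 26263938 per library, and each of the 75 genes had between 85 and 9212 counts in every library. The siHOXA-AS3 libraries stood apart. Over all 13034 genes tested, the log2 difference between replicate 1 and replicate 2 had an SD of 0.726 in siHOXA-AS3, against 0.425 in siNT and 0.371 in siHOXB-AS3. HOXB-AS3 was measured at 27.04 and 29.3 FPKM (fragments scaled by transcript length and library depth) in siNT, at 25.6 and 27.8 in siHOXA-AS3, and at 6.05 and 7.96 in siHOXB-AS3. HOXA-AS3 was near the detection limit, with 38 and 18 counts in siNT, 12 and 12 in siHOXA-AS3, and 30 and 22 in siHOXB-AS3. Each target was thus lowest in the libraries labelled with its own siRNA. All 10 epithelial and intestinal markers checked, among them EPCAM, passed the count filter, and 0 of 6 markers of blood, endothelial and mesenchymal cells did.

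The levels of the 75 genes spanned a 56.0-fold range in siNT. Their mean FPKM in siNT had a median of 48.0, whereas the median of all genes tested was 7.12. At least 10 FPKM was reached by 73 genes and at least 100 by 14. MRPL13, a large-subunit protein conserved from bacteria, was highest at 276 FPKM ± 20.4 (SD, n = 2). MRPL37 followed at 267 ± 13.9 and MRPS15, a small-subunit protein, at 243 ± 12.8 (SD, n = 2). The gaps between these first 3 were smaller than the sum of their SDs. MRPL21 at 224 ± 1.48 and MRPS33 at 174 ± 0.481 (SD, n = 2) came next, each below its neighbour by more than that sum. MRPS25 was lowest at 4.93 ± 1.04, below MRPL19 at 8.12 ± 1.39, MRPS28 at 10.4 ± 1.91, MRPL22 at 12.4 ± 1.70 and MRPS26 at 14.5 ± 0.679 (SD, n = 2). From MRPL19 to MRPS26 each gap was within the sum of the SDs of its neighbours, and MRPS25 lay below MRPL19 by more than that. Summed FPKM of the small-subunit genes was 0.382 to 0.413 of that of the large-subunit genes across the 6 libraries. The 75 genes together made up 2.27% to 2.61% of the summed FPKM of the cytosolic ribosomal protein genes.

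After HOXB-AS3 KD most mitochondrial ribosomal protein genes had slightly higher levels than in siNT, and 1 gene, MRPS34, was far lower. None of the 75 passed the threshold, an adjusted p of 0.05 (edgeR's quasi-likelihood test, Benjamini-Hochberg over all genes), when all 6 libraries shared one estimate of the spread. Over all genes tested 0.0614% were called in this comparison, which is 8 genes. An unadjusted p below 0.05 was reached by 3 of the 75, MRPS34, MRPS31 and MRPL50, a share of 4.00% against 12.2% over all genes. DESeq2 called MRPS34 alone, and 1.88% of all genes. The log2 fold change was above 0 for 56 of 75 genes, against 49.3% of all genes. Both siHOXB-AS3 libraries lay above both siNT libraries in 44 of 75 genes, against 30.9% of all genes, and below both in 10, against 30.9% of all genes. The median log2 fold change was 0.18, a fold of 1.13, beside -0.01 for all genes. The siNT libraries also differed from each other. Against the mean of both in log2 CPM, replicates 1 and 2 had medians of -0.0503 and 0.0503 over the 75 genes. Replicate 1 lay above that mean in 23 genes and replicate 2 in 52. In bulk RNA, a smaller number of cells of a kind and less RNA per cell cannot be told apart.

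**Figure D1:**
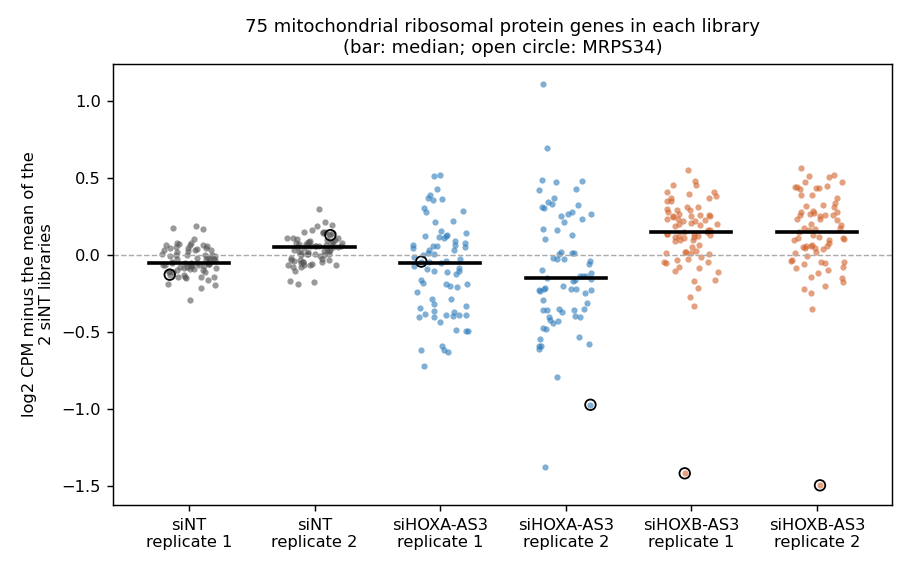
For each library, log2 CPM of the 75 genes minus the same gene's mean over both siNT libraries. Points are genes, bars are medians over genes and the open circle is MRPS34. The medians of the siNT libraries are -0.0503 and 0.0503. Those of siHOXB-AS3 are 0.148 and 0.148, those of siHOXA-AS3 are -0.0512 and -0.148, and the points of siHOXA-AS3 are the most widely spread.

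MRPS34 encodes a mitochondria-specific protein of the small subunit. Its levels were 45.1 and 53.4 FPKM in siNT, 47.7 and 24.99 in siHOXA-AS3, and 17.8 and 16.7 in siHOXB-AS3. In counts these were 1048 and 759, then 986 and 373, then 389 and 324. The siHOXB-AS3 libraries were the lowest of the 6 and close to each other, and the second siHOXA-AS3 library lay between them and siNT. The log2 fold change against siNT was -1.47 ± 0.318 (SE), a fold of 0.362, with an unadjusted p of 0.00258 and an adjusted p of 0.144. Of all genes tested, 185, or 1.42%, had a log2 fold change as low or lower. The adjusted p was 0.000407 with DESeq2, which called 1.88% of all genes. It was 1.33e-07 when only the siNT and siHOXB-AS3 libraries were fitted, where 23.3% of all genes were called. MRPS34 was called on leaving out either siHOXA-AS3 library, as were many other genes, and not on leaving out any siNT or siHOXB-AS3 library. With all 6 libraries MRPS34 was also called in the fits without the count filter and with the GC trend removed. These fits called 1.499% and 15.98% of all genes. MRPS34 was not called with RLE size factors or library totals as the scaling, with a filter on mean FPKM of at least 1, or with unrounded counts. Nor was it called with the replicate block alone, with the length trend removed or in either limma fit. The log2 fold change stayed between -1.59 and -1.33 over every library left out. For siHOXA-AS3 against siNT the log2 fold change of MRPS34 was -0.44 ± 0.310 (adjusted p = 0.961). For siHOXB-AS3 against siHOXA-AS3 it was -1.03 ± 0.316 (adjusted p = 0.158). This last value became -0.48 on leaving out siHOXA-AS3 replicate 1 and -1.42 on leaving out replicate 2.

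MRPS34 lies on chromosome 16 at chr16:1771890-1773155 on the minus strand of GRCh38 in GENCODE v29, with no exon shared with another gene. EME2, an endonuclease subunit gene on the opposite strand, starts 52 bases from the start of MRPS34, and NME3, a nucleoside diphosphate kinase gene on the same strand, starts 160 bases beyond the end of MRPS34. EME2 had 3 to 10 counts per library and did not pass the filter. NME3 measured 10.3 and 13.8 FPKM in siNT, 16.6 and 7.82 in siHOXA-AS3, and 10.8 and 9.98 in siHOXB-AS3, with a log2 fold change of -0.16 ± 0.372 after HOXB-AS3 KD (adjusted p = 0.918). The siHOXB-AS3 libraries of NME3 overlapped those of siNT. GC content moved with library differences in these data, and MRPS34 is 64.7% GC. Among the 12 genes of at least 60% GC, 6 had a log2 fold change above 0 after HOXB-AS3 KD with a median of 0.02. With the GC trend removed, MRPS34 was at -1.32 (adjusted p = 0.000197), in a fit that called 15.98% of all genes. The same fit also called MRPS34 lower after HOXA-AS3 KD, where 4.96% of all genes were called.

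An siRNA guide strand can also act on a transcript that matches only its seed, bases 2 to 8 counted from the guide's 5′ end. The siHOXB-AS3 sequences listed by the study were kept when found on either strand of a HOXB-AS3 transcript in GENCODE v29. This gave 3 different guides, taken as the strand complementary to HOXB-AS3. They are shown because MRPS34 transcripts hold a site for each, with the first 19 bases printed and the seed in capitals.
siHOXB-AS3 guide 1: aCUUUGUCucccuuugucg
siHOXB-AS3 guide 2: uUUCUUUCaugcccgacuc
siHOXB-AS3 guide 3: uUUCCCUUcaccccuugac

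The sites in the MRPS34 transcript of 1040 bases follow, from GENCODE v29, with the 7 bases that pair with the seed in capitals and the other bases shown as far as the guide would reach.
site for guide 1: caaaacaggaaGACAAAGg
site for guide 2: accttattgatGAAAGAAa
site for guide 3: agaagctatgaAAGGGAAt

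The site for guide 1 starts at base 677 of the transcript, in the coding sequence, at chr16:1772247-1772253. Over the 19 bases it is complementary to the guide at 14. The sites for guides 2 and 3, at chr16:1772157-1772163 and chr16:1771912-1771918, are in the 3′ UTR and complementary at 11 and 8 bases. A shorter transcript of 1024 bases holds a further site for guide 3 across an exon junction. Sites for all 3 seeds were found in 3 of the 75 genes, MRPS34, MRPL42 and MRPS11, and in 9.10% of the 12512 tested genes with a matched transcript. Long transcripts hold more sites: genes with all 3 had a median length of 6196 bases. Of 559 genes whose longest transcript is 900 to 1200 bases, a range set around MRPS34 after its values were seen, 2 held all 3. These were MRPS34, at -1.47, and another gene, and their median log2 fold change after HOXB-AS3 KD was -0.64. A median of 2 lies midway between them, so the other gene was higher than that. Of the 4 siHOXA-AS3 guides, no seed had a site in MRPS34. The same held for 65 of the 75 genes, MRPS34 among them, and for 79.6% of the 12512 genes.

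The mitochondrial ribosomal protein genes were grouped by the number of siHOXB-AS3 seeds with a site. The median log2 fold change after HOXB-AS3 KD was 0.19 for the 38 with none and 0.13 for the 25 with 1. It was 0.07 for the 9 with 2 and -0.10 for the 3 with all 3, which include MRPS34. Transcript length rose along the same groups, with medians of 1154.5, 1643, 2785 and 3644 bases, and its part in these values was not tested. Over all genes with a matched transcript the same medians were 0.02, 0.01, -0.01 and -0.10. MRPL42, with 37.0 and 28.3 FPKM in siNT and 35.1 and 42.2 in siHOXB-AS3, and MRPS11, with 38.7 and 42.6 in siNT and 40.8 and 40.4 in siHOXB-AS3, did not show the low level of MRPS34. In log2 CPM both siHOXB-AS3 libraries of MRPS11 were below both of siNT, with a log2 fold change of -0.10. The longest matched transcript of MRPL42 has 15582 bases, against a length of 3141 in the counting. Its sites may thus lie outside the transcripts measured. A seed match is a description of the letters, and whether the siRNAs act on MRPS34 was not tested.

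Of the other genes, MRPL58 was the next lowest after HOXB-AS3 KD. It encodes ICT1, a peptidyl-tRNA hydrolase built into the large subunit that releases stalled chains. MRPL58 measured 51.01 and 57.7 FPKM in siNT, 58.9 and 53.6 in siHOXA-AS3, and 41.9 and 40.8 in siHOXB-AS3. Both siHOXB-AS3 libraries were below the other 4, with a log2 fold change of -0.35 ± 0.181 against siNT (adjusted p = 0.520). MRPS26, a small-subunit protein, had 14.02 and 14.98 FPKM in siNT and 12.6 and 11.7 in siHOXB-AS3, a log2 fold change of -0.20. MRPL11, at the base of the stalk where translation factors bind, had 58.3 and 67.2 in siNT and 53.9 and 53.4 in siHOXB-AS3, a log2 fold change of -0.18. For both, the siHOXB-AS3 libraries were lower without overlap, but the differences were smaller than their SEs of 0.253 and 0.215.

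At the other end were MRPL50, MRPS31, MRPL14 and MRPL32. MRPL50, a mitochondria-specific large-subunit protein, measured 72.7 and 67.9 FPKM in siNT, 60.8 and 87.3 in siHOXA-AS3, and 93.5 and 99.95 in siHOXB-AS3. The siHOXB-AS3 libraries were the highest of the 6, and the log2 fold change against siNT was 0.51 ± 0.214, with an unadjusted p of 0.0495 and an adjusted p of 0.409. MRPS31, a small-subunit protein, measured 45.5 and 47.1 in siNT, 40.1 and 41.3 in siHOXA-AS3, and 66.0 and 60.6 in siHOXB-AS3. Its 3 conditions did not overlap, with siHOXA-AS3 lowest, and the log2 fold change of siHOXB-AS3 was 0.50 ± 0.167 against siNT (adjusted p = 0.286) and 0.68 ± 0.168 against siHOXA-AS3 (adjusted p = 0.100, the smallest of the 75 genes in any comparison). Of MRPL14 the libraries held 50.96 and 61.8 FPKM in siNT and 77.1 and 78.5 in siHOXB-AS3, a log2 fold change of 0.49 ± 0.248. MRPL32, which an inner-membrane protease trims before it joins the ribosome, had 47.9 and 42.6 in siNT and 56.7 and 62.3 in siHOXB-AS3, a log2 fold change of 0.44 ± 0.250. In siHOXA-AS3 these last genes spanned the siNT range, at 64.7 and 41.8 for MRPL14 and 37.1 and 58.5 for MRPL32.

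**Figure D2:**
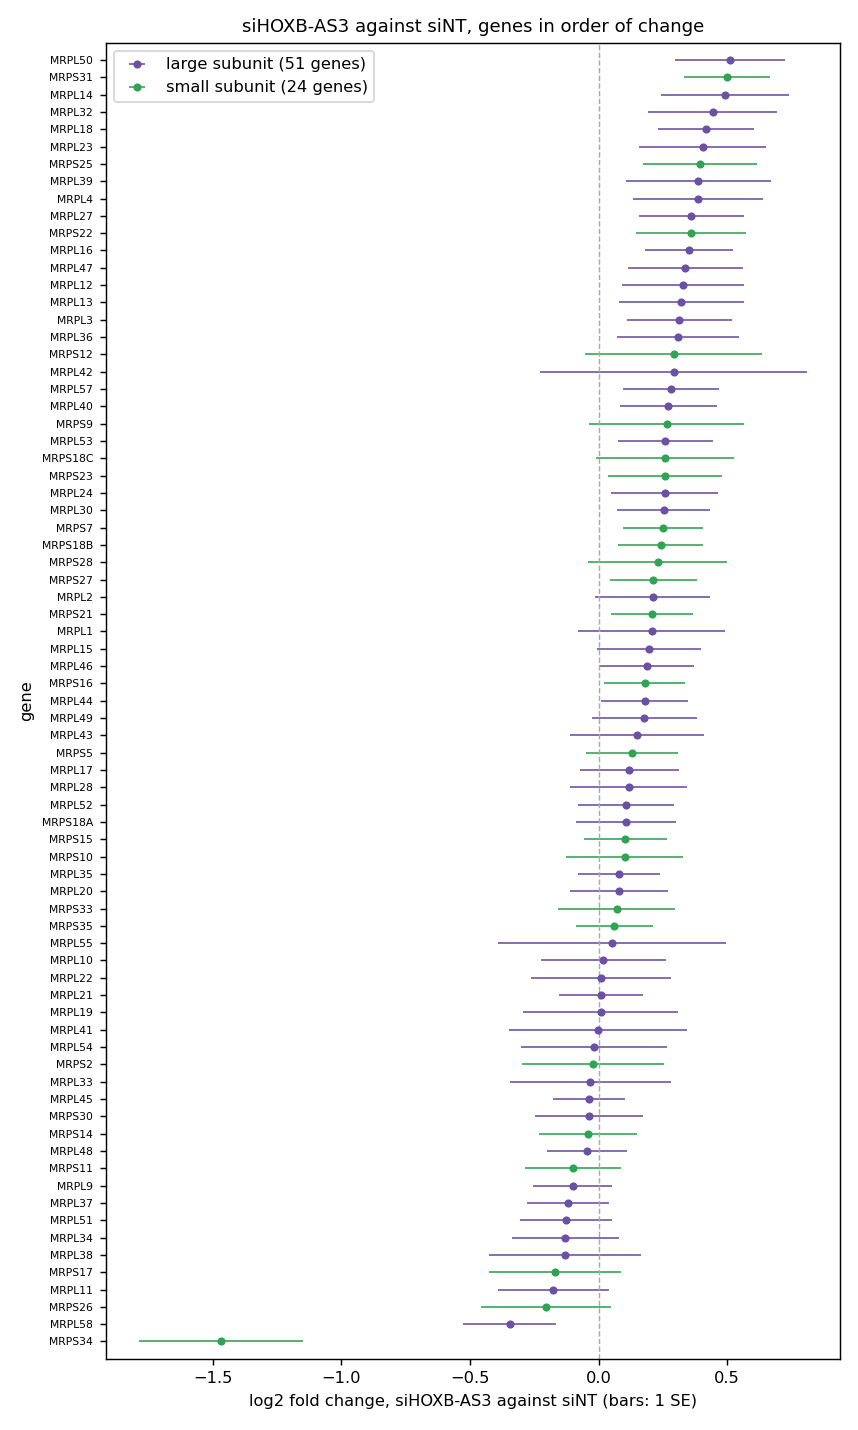
log2 fold change of siHOXB-AS3 against siNT for each of the 75 genes from edgeR, sorted, with bars of 1 SE and colours for the subunit. All but MRPS34 lie between -0.35 and 0.51, and 56 genes lie above 0.

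After HOXB-AS3 KD the median log2 fold change was 0.18 over the 51 large-subunit genes, with 38 above 0, and 0.19 over the 24 small-subunit genes, with 18 above 0. The SD over genes was 0.196 in the large subunit and 0.374 in the small subunit, which includes MRPS34. Homologues of bacterial proteins had a median of 0.20, with 36 of 44 above 0, and mitochondria-specific proteins one of 0.15, with 20 of 31 above 0. The difference between these classes was not tested. Around the exit tunnel, where the nascent chain leaves, 5 of 6 genes were above 0. In the central protuberance 4 of 7 were, and among the 3 stalk genes 2 were.

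Genes at functional sites of the ribosome gave the following values. MRPL12, a stalk protein also known to bind the mitochondrial RNA polymerase, measured 39.7 and 47.9 FPKM in siNT, 40.7 and 28.9 in siHOXA-AS3, and 48.9 and 57.4 in siHOXB-AS3. Its siHOXB-AS3 libraries were the highest, with a log2 fold change of 0.33 ± 0.236 against siNT and 0.66 ± 0.237 against siHOXA-AS3 (adjusted p = 0.208). MRPS12, which lies at the decoding centre, had 61.6 and 71.7 in siNT, 94.5 and 44.5 in siHOXA-AS3, and 85.8 and 71.4 in siHOXB-AS3, so that siHOXA-AS3 alone spanned all the other libraries. MRPL45, at the exit tunnel near the inner membrane, was among the steadiest, with 163 and 161 in siNT, 156 and 159 in siHOXA-AS3, and 158 and 148 in siHOXB-AS3. MRPS30 had 34.9 and 35.6 in siNT and 33.5 and 32.9 in siHOXB-AS3, a log2 fold change of -0.04 ± 0.209.

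MRPS18A, MRPS18B and MRPS18C are 3 genes of 1 family, descended from a single bacterial protein, whose products occupy different places in the ribosome. In the classes above, MRPS18C alone counts as the bacterial homologue, and MRPS18A and MRPS18B, at other places than that protein, count as mitochondria-specific. In siNT, MRPS18A was highest at 98.9 FPKM ± 4.91, then MRPS18B at 77.5 ± 4.15 and MRPS18C at 41.9 ± 1.07 (SD, n = 2), an order that held in each of the 6 libraries. After HOXB-AS3 KD their log2 fold changes were 0.11, 0.24 and 0.26, with adjusted p of at least 0.624. In siHOXA-AS3, MRPS18A had 96.3 and 70.9 FPKM, and MRPS18C had 30.1 and 51.1, in opposite order between the libraries.

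**Figure D3:**
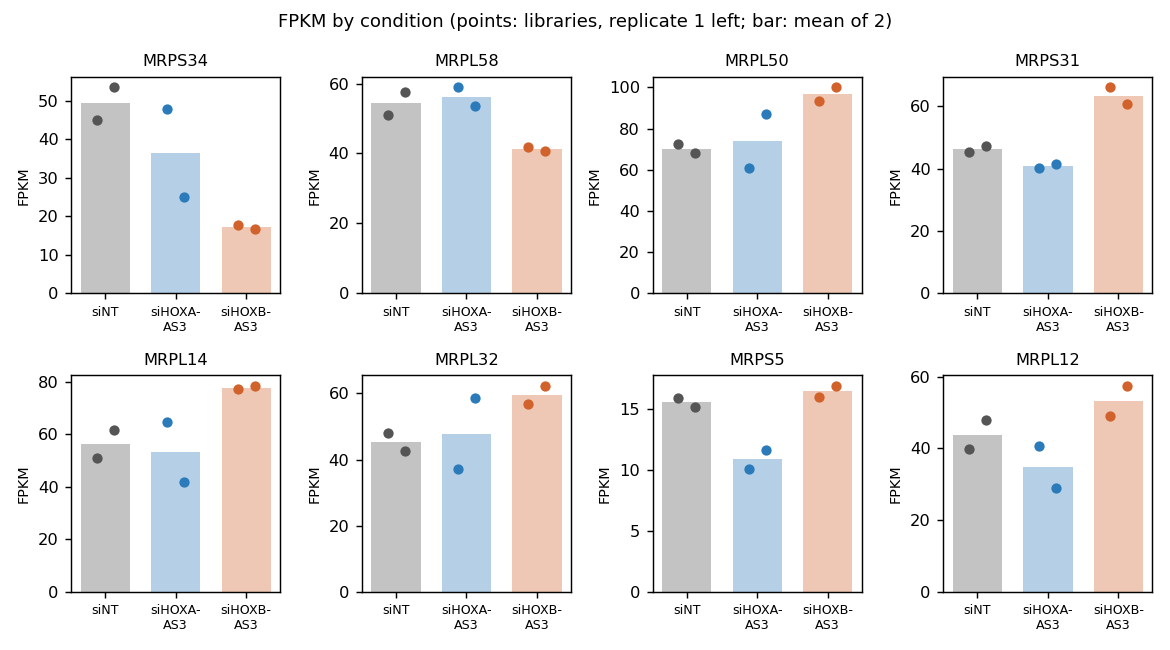
FPKM of 8 mitochondrial ribosomal protein genes. Points are libraries, with replicate 1 to the left, and bars are the mean of 2 libraries. MRPS34 is lowest in siHOXB-AS3 at 17.8 and 16.7, and MRPS5 is lowest in siHOXA-AS3 at 10.1 and 11.6.

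After HOXA-AS3 KD the genes tended to be slightly below siNT, with wide differences between the libraries of the KD. None was called by edgeR's quasi-likelihood test or by DESeq2, which called 0.0% and 0.277% of all genes. An unadjusted p below 0.05 was reached by 1 of 75, against 6.16% of all genes. The log2 fold change was above 0 for 25 of 75 genes, against 51.3% of all genes, and the median was -0.06 beside 0.01 for all genes. Both siHOXA-AS3 libraries lay above both siNT libraries in 1 gene, MRPS35, against 12.5% of all genes, and below both in 13, which is 17.3%, against 16.1% of all genes. The share below siNT was thus near that of all genes, and the share above was smaller. The median depended on the libraries: without siHOXA-AS3 replicate 1 it was -0.15. The siNT libraries themselves had medians of -0.0503 and 0.0503 about their own mean in log2 CPM.

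MRPS5, a small-subunit protein near the entry of the messenger RNA channel, had the lowest log2 fold change of the genes without overlap. It measured 15.9 and 15.1 FPKM in siNT, 10.1 and 11.6 in siHOXA-AS3, and 16.01 and 16.9 in siHOXB-AS3. Only the siHOXA-AS3 libraries stood below the others, with a log2 fold change of -0.51 ± 0.180 (unadjusted p = 0.0249, adjusted p = 0.682). MRPL34 was at -0.42, MRPL46 at -0.40 and MRPS27, which binds RNA, at -0.38, each with an adjusted p of at least 0.844. MRPL46 had 28.4 and 26.8 FPKM in siNT and 19.6 and 22.2 in siHOXA-AS3, and MRPS27 had 16.4 and 15.8 in siNT and 12.3 and 12.5 in siHOXA-AS3. MRPS35 was the single gene with both siHOXA-AS3 libraries higher, at 111 and 116 against 109 and 103, a log2 fold change of 0.12 ± 0.149.

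The libraries of the HOXA-AS3 KD differed along GC content. Over the 75 genes the difference between replicate 1 and replicate 2 had an SD of 0.592 in siHOXA-AS3, against 0.179 in siNT and 0.121 in siHOXB-AS3. Its Pearson correlation with GC content across these genes, which share the same pair of libraries and are not independent replicates, was 0.795 in siHOXA-AS3, -0.689 in siNT and 0.268 in siHOXB-AS3. MRPL42, of 35.8% GC, measured 19.5 and 69.3 FPKM in siHOXA-AS3, and MRPL55, of 63.5% GC, measured 48.0 and 16.7. These 2 genes, picked after their values were seen, had the largest spread between the libraries and lay on opposite sides. The genes had a median GC of 50.03% against 49.2% for all genes. How much of the values of siHOXA-AS3 follows from it was not tested gene by gene beyond the fit with the GC trend removed.

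**Figure D4:**
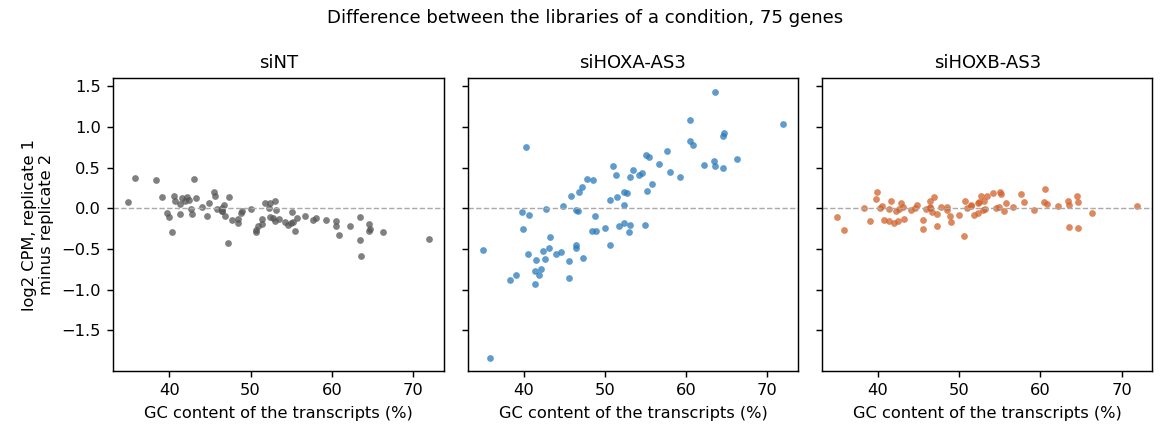
Difference in log2 CPM between replicate 1 and replicate 2 of each condition against the GC content of the transcripts, for the 75 genes. The points of siHOXA-AS3 follow GC content with a Pearson correlation of 0.795, and those of siHOXB-AS3 stay close to 0 with an SD of 0.121.

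In siHOXB-AS3 against siHOXA-AS3, 59 of 75 genes had a log2 fold change above 0, against 48.9% of all genes. No gene of the 75 was called by edgeR, against 1.57% of all genes, and DESeq2 called MRPS31 and MRPS34, which is 2 of 75, against 4.37% of all genes. An unadjusted p below 0.05 was reached by 13, which is 17.3%, against 18.4% of all genes, and 12 of these were higher in siHOXB-AS3. Both siHOXB-AS3 libraries were higher than both siHOXA-AS3 libraries in 33 genes, against 22.8% of all genes, and lower in 3, MRPS34, MRPL58 and MRPS30, against 22.5% of all genes. The median log2 fold change was 0.23 beside -0.01 for all genes. MRPL18, which belongs to the central protuberance, measured 48.7 and 49.3 FPKM in siNT, 37.5 and 48.2 in siHOXA-AS3, and 60.7 and 61.7 in siHOXB-AS3. Its siHOXB-AS3 libraries were the highest of the 6 and the log2 fold change against siHOXA-AS3 was 0.67 ± 0.188 (adjusted p = 0.128). MRPS5 followed at 0.64 ± 0.180. Since the comparisons with siNT share the same 2 control libraries, their values are given side by side and no likeness between them is drawn.

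The shared row of MRPS24, URGCP and the read-through URGCP-MRPS24 had 237 and 275 FPKM in siNT, 289 and 180 in siHOXA-AS3, and 275 and 270 in siHOXB-AS3. That of MRPS6 and SLC5A3 had 55.04 and 60.03, 58.7 and 63.1, and 58.4 and 55.2. Their log2 fold changes after HOXB-AS3 KD were 0.15 and 0.03.

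The following promoter windows are those of the 2 lowest and the 2 highest genes after HOXB-AS3 KD, shown because these 4 span the range of change. Each runs from 250 bases before to 50 after the annotated start in RefSeq on GRCh38.p14, in the direction of the gene, with the motifs found in capitals.
MRPS34, chr16:1773085-1773384, minus strand: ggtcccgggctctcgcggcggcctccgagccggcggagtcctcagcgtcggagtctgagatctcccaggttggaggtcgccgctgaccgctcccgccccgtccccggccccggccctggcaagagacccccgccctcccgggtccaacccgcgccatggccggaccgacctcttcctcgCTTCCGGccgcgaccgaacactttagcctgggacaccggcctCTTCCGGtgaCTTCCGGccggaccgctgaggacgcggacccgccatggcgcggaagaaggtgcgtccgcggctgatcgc
MRPL58, chr17:75012420-75012719, plus strand: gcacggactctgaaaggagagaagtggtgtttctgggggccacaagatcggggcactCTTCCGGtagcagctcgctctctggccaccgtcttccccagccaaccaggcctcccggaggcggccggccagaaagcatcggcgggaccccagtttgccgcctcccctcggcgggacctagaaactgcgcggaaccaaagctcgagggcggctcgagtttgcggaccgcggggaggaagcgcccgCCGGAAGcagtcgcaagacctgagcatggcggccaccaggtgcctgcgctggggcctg
MRPL50, chr9:101398569-101398868, minus strand: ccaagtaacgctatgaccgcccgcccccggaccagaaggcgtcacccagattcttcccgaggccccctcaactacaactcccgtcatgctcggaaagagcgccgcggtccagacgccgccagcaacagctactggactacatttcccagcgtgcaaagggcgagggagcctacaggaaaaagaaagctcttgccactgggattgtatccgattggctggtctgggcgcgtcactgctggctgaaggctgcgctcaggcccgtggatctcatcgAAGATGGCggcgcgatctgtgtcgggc
MRPS31, chr13:40771141-40771440, minus strand: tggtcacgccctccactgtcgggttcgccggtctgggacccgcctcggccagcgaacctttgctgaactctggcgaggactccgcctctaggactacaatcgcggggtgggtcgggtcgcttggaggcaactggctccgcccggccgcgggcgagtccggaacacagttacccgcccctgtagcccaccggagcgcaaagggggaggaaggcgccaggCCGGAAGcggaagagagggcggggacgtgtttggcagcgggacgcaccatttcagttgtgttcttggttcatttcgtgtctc

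A set of 4 short motifs was searched on both strands: the ETS core CCGGAAG, the YY1 core AAGATGGC, the NRF1 core GCATGCGC with its reverse complement GCGCATGC, and the E-box CACGTG. No motif contains another. ETS factors such as GABP, YY1 and NRF1 are known regulators of nuclear genes for mitochondria, and MYC binds E-boxes. The MRPS34 window holds the ETS core 3 times, the MRPL58 window holds it at 2 places, the MRPS31 window holds it once and the MRPL50 window holds the YY1 core just after the start.

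RefSeq windows were at hand for 67 of the 75 genes. Of these, 44.8% held the ETS core, against 22.7% of 10007 tested genes with a window and 16.5% of 15842 protein-coding genes. The YY1 core was in 29.9%, against 6.57% and 4.67%. Shares for the NRF1 core were 8.96%, 6.56% and 4.89%, and for the E-box 13.4%, 12.4% and 10.9%. At least one of the ETS and YY1 cores was in 42 genes, and 8 held both. GC content of the windows was 60.6% in the 67 genes and 63.5% in the genes tested. After HOXB-AS3 KD the median log2 fold change was 0.18 in the 20 genes with the YY1 core and 0.15 in the 47 without, 0.16 in the 30 with the ETS core and 0.18 in the 37 without, and 0.07 in the 9 with an E-box and 0.18 in the 58 without. These differences were not tested. A match is not a binding site.

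**Figure D5:**
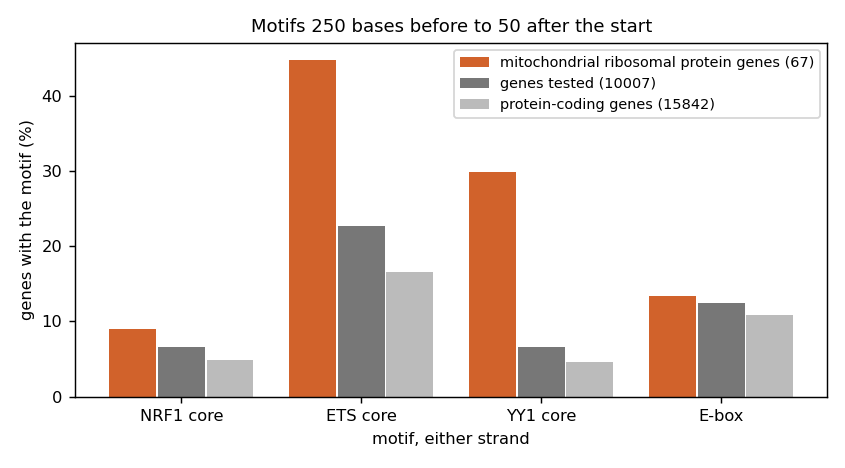
Share of genes with each motif in any window from 250 bases before to 50 after a RefSeq start, for the 67 mitochondrial ribosomal protein genes with a window, the genes tested and the protein-coding genes. The ETS core is in 44.8%, 22.7% and 16.5%, and the YY1 core in 29.9%, 6.57% and 4.67%.

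Genes of the same pathway gave these values. The 5 mitochondrial ribosomal proteins with other symbols, DAP3, PTCD3, AURKAIP1, CHCHD1 and GADD45GIP1, were all above 0 after HOXB-AS3 KD, with a median of 0.20. Of 28 assembly factors, the GTPases, methyltransferases and helicases that build the ribosome, 22 were above 0 with a median of 0.10. MRM1, an rRNA methyltransferase, had the highest value there at 0.75 (adjusted p = 0.543) and MTERF4 the lowest at -0.35. Translation factors were split, with 9 of 15 above 0, from MTRF1 at -0.42 to the recycling factor MRRF at 0.44. Of 17 mitochondrial tRNA synthetases 12 were above 0, from FARS2 at -0.50 to EARS2 at 0.58, and of 13 genes for replication and transcription of mitochondrial DNA 11 were, with TFB2M highest at 0.75 (adjusted p = 0.324). None of the genes of these lists was called in either comparison with siNT by edgeR or DESeq2. After HOXB-AS3 KD an unadjusted p below 0.05 in edgeR was reached by 1 of 15 translation factors and 1 of 17 tRNA synthetases. It was also reached by 1 of 13 genes of mitochondrial DNA expression, against 12.2% of all genes. After HOXA-AS3 KD it was reached by 0, against 6.16% of all genes.

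Among 9 nuclear regulators, MYC had the largest value. It measured 105 and 97.6 FPKM in siNT, 126 and 122 in siHOXA-AS3, and 191 and 226 in siHOXB-AS3, so the conditions did not overlap. The log2 fold change after HOXB-AS3 KD was 1.09 ± 0.154 with an adjusted p of 0.0774, short of the threshold, whereas DESeq2 called it. YY1 was at 0.14 and NRF1 at -0.12 in the same comparison.

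Cytosolic ribosomal protein genes, of which 75 of 78 were tested, were above 0 after HOXB-AS3 KD in 69 cases, with a median of 0.19, and above 0 after HOXA-AS3 KD in 13, with a median of -0.10. The corresponding shares of the 75 mitochondrial genes were 56 and 25, and the difference between the sets was not tested. RPS12 alone of these 75 was called by edgeR in siHOXB-AS3 against siHOXA-AS3, at 0.94 ± 0.139 (adjusted p = 0.0376), against 1.57% of all genes. DESeq2 called RPS12, RPS26 and RPS29 there, against 4.37% of all genes. Of 73 nuclear subunits of the respiratory chain and ATP synthase, 56 were above 0 after HOXB-AS3 KD with a median of 0.11, from NDUFA7 at -0.41 to ATP5MC1 at 0.41, and 31 were above 0 after HOXA-AS3 KD. Of 10 epithelial markers, 8 were below 0 after HOXB-AS3 KD, and EPCAM was at -0.81 ± 0.140 (adjusted p = 0.101), with 289 and 278 FPKM in siNT against 159 and 153 in siHOXB-AS3. EPCAM was called by DESeq2 in that comparison, and EPCAM and CDH17, both adhesion proteins, were lower in siHOXB-AS3 than in siHOXA-AS3 by edgeR, at -0.82 and -1.32. CDH17 measured 7.12 and 6.38 FPKM in siNT, 11.3 and 14.8 in siHOXA-AS3, and 5.20 and 4.96 in siHOXB-AS3, and DESeq2 called it higher after HOXA-AS3 KD, where 6 of 10 markers were above 0. The part of these shifts in the values of the mitochondrial ribosomal protein genes was not tested. No gene of the mitochondrial genome itself had a row in the tables, so the products that the mitochondrial ribosome makes were not measured here.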

How the data were processed

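Poly(A) RNA of 6 HT-29 libraries was sequenced by the authors with a SENSE mRNA kit. The deposited expected counts, FPKM and TPM values are RSEM output on RefSeq genes, and the submitters' processing notes name hg19. Not given in the sources used here: aligner, version of RSEM, and whether strand was used in counting. Expected counts are estimated fragments per gene without normalization. FPKM and TPM values were deposited as scaled by gene length and library size, and TPM to a fixed sum. Of the 27434 rows, 627 join several genes and held 6.02% to 6.62% of counts, and 0.0267% to 0.0342% of counts were in rows without a symbol.

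Expected counts were rounded, filtered with filterByExpr at a minimum count of 10, which left 13034 genes, scaled by TMM and tested with edgeR 4.0.16 (robust quasi-likelihood test, R 4.3.3) over all 6 libraries with condition as the only term, with Benjamini-Hochberg adjustment over all genes tested and a threshold of 0.05. The study's methods name DESeq2, here 1.42.0, which was run as an alternative, as were limma 3.58.1 on log2(FPKM + 0.1) and log2(FPKM + 1), other scalings and filters, removal of GC or length trends (loess span 0.3), a replicate block and leaving out each library. log2 CPM used a prior count of 2. In counts simulated from each gene's mean level and fitted spread, 180 of 200 genes changed 4-fold were recovered for siHOXB-AS3 against siNT over 13034 genes. Smaller changes were not simulated, and those of the mitochondrial ribosomal protein genes were all smaller than 4-fold. How often changes of their size would be missed was not tested.

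Members and lists were chosen with earlier results of these data known. Genes were named when called, when among the 4 highest or lowest log2 fold changes of a comparison without overlap between libraries, when among the 5 highest or lowest siNT levels, as the MRPS18 family, or as examples of a role (MRPL12, MRPS12, MRPL58, MRPS30, MRPL45). Genes of other lists were named from those called or among the 2 highest or lowest, though not all of these are given. YY1 was also named, as a factor whose motif was searched, and so were all 5 mitochondrial ribosomal proteins with other symbols. Promoter windows come from RefSeq on GRCh38.p14 and transcripts from GENCODE v29. No coordinates of the files were used. A planned comparison of the proteins was not run. Counting intervals are not given.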

Additional observations from a re-analysis of the deposited data

How the results depend on the processing

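The median log2 fold change of the 75 genes kept its sign under every alternative in all 3 comparisons. Beside 0 calls in each, called genes after HOXB-AS3 KD numbered 1 with DESeq2, 1 without the count filter, 16 with only the compared libraries fitted and 10 with the GC trend removed, where 1.88%, 1.499%, 23.3% and 15.98% of all genes were called. In siHOXB-AS3 against siHOXA-AS3 the same alternatives gave 2, 1, 0 and 28 (4.37%, 3.99%, 0.0156% and 28.03% of all genes), and after HOXA-AS3 KD the fit with the GC trend removed called 1 gene, MRPS34 (4.96% of all genes). In that fit the median of siHOXB-AS3 against siHOXA-AS3 was 0.289. When libraries were left out in turn, calls ranged from 0 to 27 after HOXA-AS3 KD, from 0 to 17 after HOXB-AS3 KD and from 0 to 36 between the KDs. All of these calls came from leaving out siHOXA-AS3 replicate 1 (27, 17 and 36, with 30.3%, 22.7% and 37.8% of all genes) or replicate 2 (15, 17 and 33, with 17.9%, 22.6% and 36.01% of all genes), a fit that assumes the lone library to vary like the other conditions. The medians ranged from -0.153 to -0.0296, 0.149 to 0.194, and 0.188 to 0.302. Medians of each subunit were compared with the SD between replicates of their library medians, over all alternatives and the 3 comparisons. The small-subunit median moved by at least that SD in 22 cases and by less in 38. For the large-subunit median these were 2 and 58 cases. MRPL45 after HOXA-AS3 KD turned to 0.0117 with the length trend removed, and the cause was not tested. Libraries with the same replicate number did not deviate together (Pearson of deviations -0.347 for siNT with siHOXA-AS3, -0.139 for siNT with siHOXB-AS3 and 0.150 for the KDs). The replicate block called 0 of the 75 genes in each comparison and 0.0767% of all genes between the KDs, and with the GC trend removed it called 0, 8 and 26 (3.08%, 11.95% and 24.2% of all genes), with a median of 0.289 between the KDs. With the replicate numbers of siNT crossed, a pairing chosen after seeing the data, the block called 0, 1 and 1 (0.107%, 1.73% and 5.82% of all genes), with a median of 0.278 between the KDs.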
